A study of Sus scrofa with 42 samples.

Results

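Genes of the poly(A)-binding protein family were followed through the first cleavages of pig embryos, in which development was started either by sperm (in vitro fertilization, IVF) or without it (parthenogenetic activation, PA). The 7 genes, PABPC1, PABPC1L, PABPC4, PABPC5, PABPN1, PAIP1 and PAIP2, were chosen by name from the 15351 genes of the table, and the family was chosen on its measured values: on the stages at which its members were high or low, and on the PABPC5 of the PA 8-cell blastomeres. Values between stages, and PABPC5 between methods, are therefore given as a description, without a p. All 7 genes were in the table. PABPC1 and PABPC4 carry no symbol there and were matched by their Ensembl gene IDs.

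Single blastomeres, 42 from 20 embryos, were sequenced at 1-, 2-, 4- and 8-cell stage, which were collected at 19, 27, 48 and 72 h, respectively. Each method gave 3 zygotes, 6 blastomeres of 3 2-cell embryos, 9 blastomeres of 3 4-cell embryos and 3 blastomeres of 1 8-cell embryo. IVF embryos came from oocytes incubated with sperm, whereas PA embryos were started by electric pulses followed by 6-DMAP and cytochalasin B, and thus carry maternal chromosomes only. In both groups the oocytes came from slaughterhouse ovaries of gilts and were matured in vitro, so no stage represents an embryo grown in vivo, and the 8-cell stage of each method is 1 embryo.

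The poly(A) tail of an mRNA is covered by poly(A)-binding proteins. In the cytoplasm these proteins touch the cap-binding complex through EIF4G and help translation to start, and in the nucleus PABPN1 sets the length of new tails. Oocytes store mRNA for later use and carry their own cytoplasmic form, PABPC1L (also called ePAB), whereas PABPC1 is the general somatic form. PAIP1 binds PABP and stimulates translation, and PAIP2 binds PABP and represses translation.

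The family differs in gene structure as well as in expression, and the sequences below show the start and the end of the genes on which the results turn. By RefSeq on Sscrofa11.1, PABPC1 (636 residues), PABPC1L (615 residues) and PABPC4 (660 residues) are encoded by 14, 14 and 15 coding exons, respectively. PABPC5 (382 residues, under the name LOC100518351 in RefSeq) has 1 coding exon. The proteins of PABPC4, PABPC1L and PABPC5 were identical to that of PABPC1 at 81.2%, 72.1% and 64.2% of the aligned residues, and PABPN1 at 16.7%. A search for other genomic stretches of at least 100 bases with at least 95% identity to the transcripts found 0 for 6 genes and 2 for PABPC4, the longest of 135 bases, so reads of PABPC4 are the least certain in this respect.

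The 150 bases before the RefSeq start of PABPC1 (chr4:36137494-36137643, plus strand), PABPC1L (chr17:47321109-47321258, plus strand), PABPC5 (chrX:74141557-74141706, plus strand) and PAIP1 (chr16:28134297-28134446, minus strand) are shown because these genes differed in the stages at which they were high. Capitals mark the GC box GGGCGG, the CCAAT box and the E-box CACGTG on either strand. Neighbouring GC boxes may overlap.
PABPC1: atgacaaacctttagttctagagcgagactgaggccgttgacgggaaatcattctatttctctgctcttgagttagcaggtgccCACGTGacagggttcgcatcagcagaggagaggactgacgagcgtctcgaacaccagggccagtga
PABPC1L: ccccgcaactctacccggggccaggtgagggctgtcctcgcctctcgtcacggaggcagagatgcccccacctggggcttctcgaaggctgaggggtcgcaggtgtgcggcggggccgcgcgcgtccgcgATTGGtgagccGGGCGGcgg
PABPC5: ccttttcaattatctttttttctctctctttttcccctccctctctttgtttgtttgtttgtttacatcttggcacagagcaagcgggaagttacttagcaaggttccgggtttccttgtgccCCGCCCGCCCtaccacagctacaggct
PAIP1: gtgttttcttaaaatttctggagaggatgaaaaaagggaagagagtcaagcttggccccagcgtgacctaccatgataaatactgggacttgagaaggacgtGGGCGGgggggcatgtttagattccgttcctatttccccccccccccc

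In the window from 250 bases before to 50 bases after the start, the GC content was 73% for PABPC1L, 50% for PAIP1, 45.3% for PABPC1 and 42.3% for PABPC5, against a median of 58.7% over 19535 promoters. The E-box of PABPC1 was found in 7.92% of all promoters of this length, the GC box in 50.6%, the CCAAT box in 35.4% and the TATA box TATAAA in 10.9%. A match of letters is a description and not a binding site.

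The last bases of the transcripts are shown for 5 genes because the tail that the proteins bind is added there. Capitals mark the polyadenylation signal AATAAA in windows of 30 bases, namely PABPC1 (chr4:36228042-36228071, plus strand), PABPC4 (chr6:95382303-95382332, minus strand), PABPC5 (chrX:74145912-74145941, plus strand), PAIP1 (chr16:28098589-28098618, minus strand) and PAIP2 (chr2:141260175-141260204, plus strand).
PABPC1: aattcttgctttAATAAAaattccttaaac
PABPC4: agtcttaagtttAATAAAgaaaaaaaatct
PABPC5: ttaaatctactagaaaAATAAAaatacaca
PAIP1: ttagactttgaaAATAAAatttaaatagtt
PAIP2: aatatttaaaaaAATAAAtaatagtagaac

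The signal AATAAA lay in the last 50 bases of 51% of 19535 annotated gene ends. PABPN1 had the variant ATTAAA, and neither was found at the end annotated for PABPC1L. The letters of a cytoplasmic polyadenylation element (TTTTAT or TTTTAAT, in the last 150 bases of 21% of gene ends) were found only in PABPC4 among the 7 genes, 56 bases before its end.

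The reads counted on genes, recovered from FPKM (fragments scaled to the length of the gene and to the mapped reads of the cell), ranged from 4316908 to 15035941 per cell with a median of 10182619. Mitochondrial mRNAs took from 6.07% to 63.0% of the summed FPKM, with IVF group means of 14.1%, 28.3%, 41.0% and 44.3% in the order of stages, and PA group means of 13.5%, 16.7%, 41.0% and 47.0%. Nuclear genes thus had a smaller share of the sum at later stages, but the sum itself was not constant. It was 1.071e+05 to 1.402e+05 in zygotes and 2.255e+05 to 2.746e+05 in 8-cell blastomeres. A smaller nuclear share therefore does not by itself mean lower FPKM of nuclear genes. Of 10 oocyte marker genes, 8 were in the table, and their summed FPKM was 207 to 1031 in IVF and 39.2 to 680 in PA cells up to 4-cell stage, against 2.42 to 196 in IVF and 0.498 to 79.1 in PA 8-cell blastomeres. ZP4, a zona pellucida gene, reached 617 FPKM, whereas ZAR1 was at 0 in the median cell. Of 12 cumulus markers, 9 were in the table, and VCAN, STAR and GREM1 reached 1 FPKM in 27, 20 and 15 cells, whereas TNFAIP6, CD44 and INHBA did so in 0 cells. The part of other cells in the results was not tested. The blastomeres PA 4-cell-2-1 and 4-cell-1-4 nearly repeated PA 2-cell-2-1 and 2-cell-1-2 (Pearson's r of log2 values over genes 0.9988 and 0.9985, against at most 0.9079 for the next of 861 pairs), so results on the PA 4-cell stage are also given without these 2 cells where that matters. Differences between stages or methods below are on the log2(FPKM + 1) scale between embryos, each embryo being the mean of its blastomeres, with the standard error (SE) of a limma fit over all 20 embryos. For the single 8-cell embryo of each method, the fit borrowed the spread of the remaining groups. A gene was called if it changed 2-fold or more with a Benjamini-Hochberg adjusted p under 0.05. The 8116 genes that reached 1 FPKM in 3 or more cells were tested. All 7 members passed this filter, PABPC5 through 4 cells. Of these, 3 were the PA 8-cell blastomeres that entered the choice of the family.

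**Figure D1:**
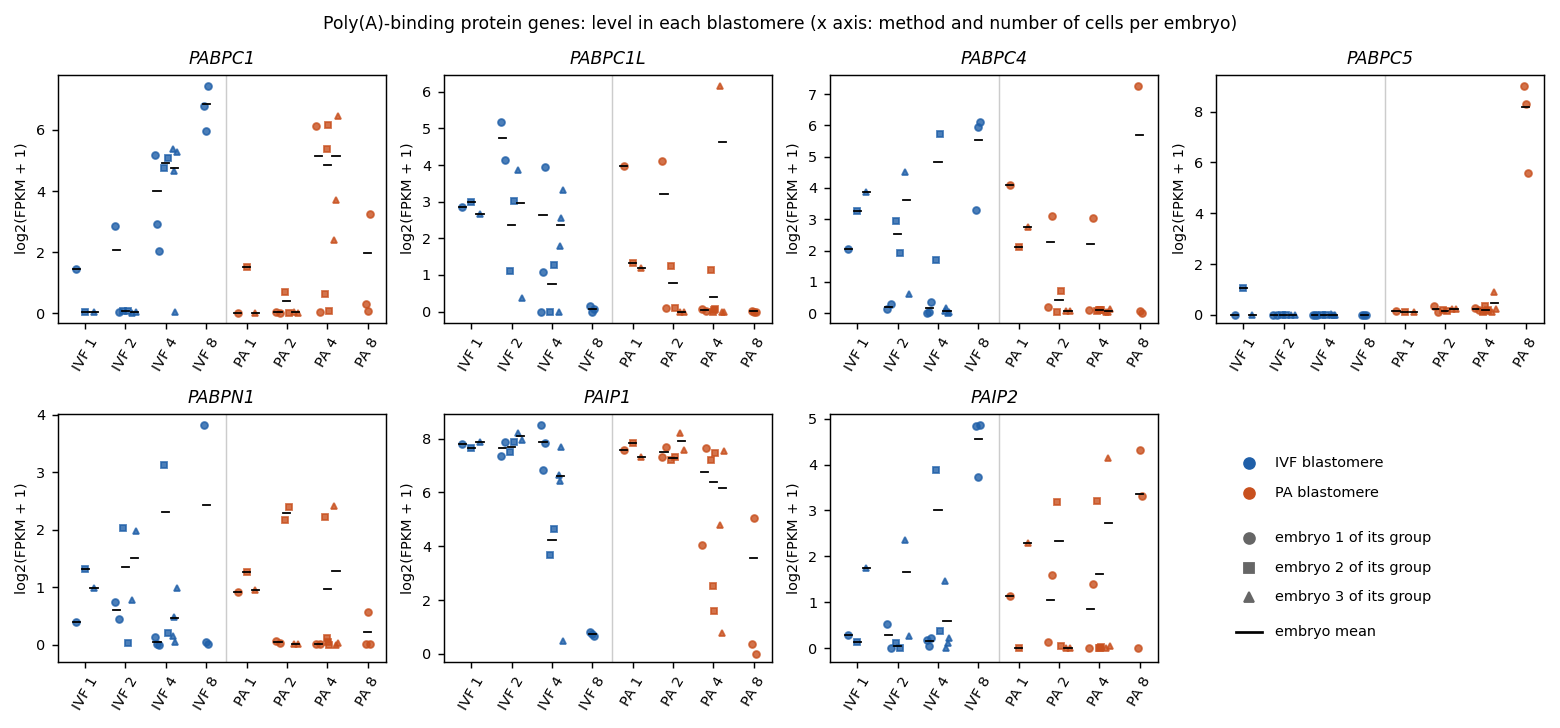
Level of the 7 genes in each of the 42 blastomeres, as log2(FPKM + 1), by method and number of cells per embryo. Points are blastomeres, symbols mark embryos 1 to 3 of a group and black lines mark embryo means. PABPC1 was high from 4-cell stage on in IVF, PAIP1 was high up to 2-cell stage in every cell, and PABPC5 was high only in the 3 PA 8-cell blastomeres.

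PABPC1 (ENSSSCG00000006063, chr4:36137639-36228348), the general cytoplasmic form, was close to 0 in most zygotes and 2-cell blastomeres and abundant in most 4-cell blastomeres. IVF zygotes had 1.739, 0.04237 and 0.02278 FPKM, and IVF 2-cell blastomeres had 0.01509 to 6.301 with a median of 0.04824. IVF 4-cell blastomeres ranged from 0.03561 to 40.9 FPKM with a median of 25.78, and IVF 8-cell blastomeres had 109.1, 61.33 and 172.2. Of the IVF cells, 8 of 9 at 4-cell stage were above 1 FPKM, against 1 of 6 at 2-cell stage, and the 3 8-cell blastomeres were above every other IVF cell. In PA, the zygotes had 0.01552, 1.853 and 0.01366 FPKM and the 2-cell blastomeres 0.01272 to 0.6066, with a median of 0.02303. PA 4-cell blastomeres ranged from 0.0359 to 86.61 with a median of 12.05, and 6 of 9 were above 1 FPKM. PA 8-cell blastomeres had 0.2455, 0.06618 and 8.58 FPKM, which is below all 3 IVF 8-cell blastomeres. Averaged over embryos, PABPC1 went from 1.08 ± 1.80 (SD, n = 3) at 2-cell to 23.3 ± 7.49 FPKM (n = 3) at 4-cell stage in IVF and from 0.119 ± 0.167 (n = 3) to 32.1 ± 3.70 (n = 3) in PA, without overlap of embryos in PA or IVF. The difference on the log2 scale was 3.82 (SE 0.739) in IVF and 4.89 (SE 0.739) in PA. From 4- to 8-cell stage it was 2.30 (SE 1.05) in IVF and -3.06 (SE 1.05) in PA. The 10 other processing settings changed the size and not the direction of these 4 values, to between 2.22 and 5.80 and between 2.85 and 9.15 at the earlier step and to between 2.02 and 4.16 and between -6.15 and -2.22 at the later step, for IVF and PA respectively.

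PABPC1L (ENSSSCG00000007382, chr17:47321380-47350550), the oocyte form, was present in all zygotes and close to 0 in all 8-cell blastomeres. IVF zygotes had 6.198, 6.908 and 5.303 FPKM, which lay closely together, whereas PA zygotes had 14.82, 1.489 and 1.268. In IVF, 2-cell blastomeres ranged from 0.2979 to 34.78 with a median of 10.29, 4-cell blastomeres from 0 to 14.44 with a median of 1.394, and 8-cell blastomeres had 0.1095, 0 and 0.04655 FPKM. In PA, the 2-cell blastomeres ranged from 0 to 16.38 with a median of 0.0671 and the 4-cell blastomeres from 0 to 70.6 with a median of 0.02524. Single blastomeres were thus far above their sisters, such as PA 4-cell-3-1 with 70.6 FPKM against 0 in the other blastomeres of that embryo. PA 8-cell blastomeres had 0.01566, 0 and 0. The gene overlaps TOMM34 on the opposite strand, which reached 19.69 FPKM and was below PABPC1L in 19 of 42 cells. Whether reads were counted by strand is not stated, and reads of both genes cannot be told apart otherwise, which makes the level of PABPC1L uncertain.

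PABPC4 (ENSSSCG00000003660, chr6:95379777-95399063), an inducible cytoplasmic form first found in activated T cells, was present in zygotes, near 0 in most 2- and 4-cell blastomeres and present again at the 8-cell stage. IVF zygotes had 3.098, 8.573 and 13.56 FPKM and PA zygotes 16.12, 3.287 and 5.688. The median was 1.651 and 0.04089 FPKM over IVF 2- and 4-cell blastomeres and 0.09398 and 0.06924 over PA 2- and 4-cell blastomeres, and single blastomeres reached 52.25 in IVF and 7.25 in PA at the 4-cell stage. IVF 8-cell blastomeres had 8.894, 60.92 and 67.41 FPKM. PA 8-cell blastomeres had 152.3, 0.04397 and 0, so that 1 of the 3 cells carried the PA 8-cell mean of 50.8 FPKM. The difference from 4- to 8-cell stage was 3.87 (SE 1.67) in IVF and 4.90 (SE 1.67) in PA on the log2 scale, and the PA value was 1.86 when log2 values rather than FPKM were averaged over blastomeres.

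PABPC5 (ENSSSCG00000040194, chrX:74142589-74145900), an X-linked cytoplasmic form, was abundant in the 3 PA 8-cell blastomeres, with 513.7, 312.5 and 46.85 FPKM, and listed at 0 in the 3 IVF 8-cell blastomeres. These values rest on 59551, 19670 and 4109 reads, and the gene ranked 32, 59 and 586 among 15327 nuclear genes in these cells. All 3 cells come from 1 embryo. The 18 PA cells of the 1- to 4-cell stages were all above 0, at 0.07785 to 0.8911 FPKM or 5 to 65 reads with a median of 13.5. Of 21 IVF cells, 2 were above 0: the zygote 1-cell-2 with 107 reads (1.088 FPKM) and blastomere 4-cell-3-1 with 1 read. The mean FPKM went from 0.234 ± 0.127 (SD, n = 3 embryos) at the PA 4-cell stage to 291 in the PA 8-cell embryo, a difference of 7.89 on the log2 scale. The SE of the fit, 0.551, comes from the other groups, where PABPC5 was near 0. It does not measure the spread between embryos at the 8-cell level, and the sisters of this embryo alone spanned 3.43 on the log2(FPKM + 1) scale. The embryos also differed in their sex chromosomes: the 25 genes that the table places on the Y chromosome summed to 326.1, 262.7 and 53.85 FPKM in the IVF 8-cell blastomeres and to 0, 0.007646 and 0 in the PA 8-cell blastomeres. The method and the sex of the embryo thus cannot be told apart at this stage for an X-linked gene.

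**Figure D2:**
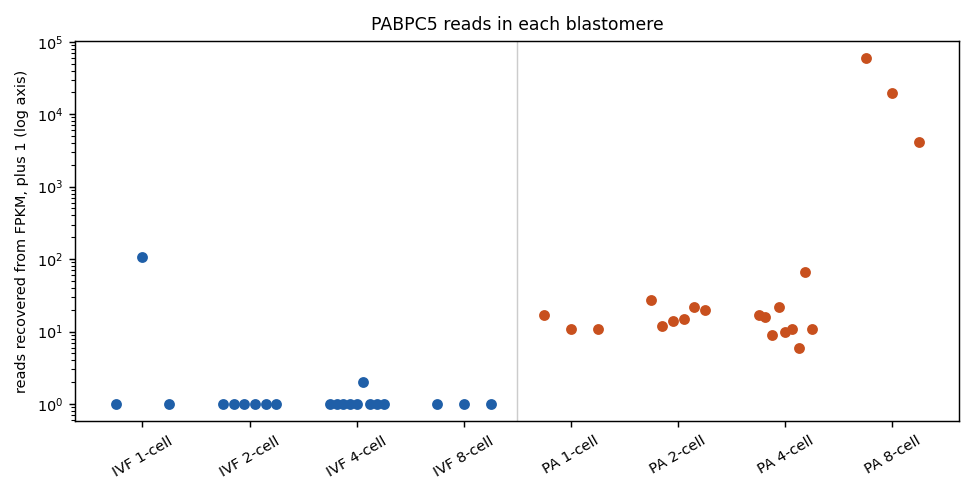
Reads of PABPC5 recovered from FPKM in each of the 42 blastomeres, plus 1, on a log axis, by method and stage. The 3 PA 8-cell blastomeres held 59551, 19670 and 4109 reads, the other 18 PA cells 5 to 65 reads, and 19 of 21 IVF cells lie at 0 reads.

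Low reads of a gene that is high in a few cells of the same method were seen beyond PABPC5. Among genes with at least 20000 reads in all, of which at least 98% lay in 3 cells of 1 method, 6 had those cells in PA and 3 in IVF, a set chosen after the values were seen. The 6 genes, PABPC5 included, were above 0 in 16 to 18 of the other 18 PA cells and in 2 to 4 of 21 IVF cells. The 3 genes of the other kind were above 0 in 13 to 15 of the other 18 IVF cells and in 3 to 5 of 21 PA cells. How far the 5 to 65 reads of PABPC5 come from transcripts of those cells was not tested.

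PABPN1 (ENSSSCG00000002023, chr7:75750330-75770723), the nuclear form, was low throughout. In the order of stages, IVF groups had means of 0.928, 1.30, 1.45 and 4.40 FPKM, whereas PA groups had means of 1.07, 1.31, 0.801 and 0.163 FPKM. Zygotes were alike, with 0.3166 to 1.5 FPKM in IVF and 0.8958 to 1.4 in PA. At later stages single cells carried the mean: IVF 8-cell blastomeres had 13.16, 0.03339 and 0.01247 FPKM, and PA 4-cell blastomeres ranged from 0 to 4.3 with a median of 0.02433. The gene overlaps HOMEZ on the opposite strand, which reached 1.303 FPKM at most. Its span given above also exceeds that of PABPN1 in RefSeq (chr7:75752571-75756522). How far its reads come from outside the RefSeq gene was not tested, which makes the level of PABPN1 uncertain.

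PAIP1 (ENSSSCG00000016874, chr16:28098319-28133956), the stimulating partner, was the most abundant member up to the 2-cell stage. IVF zygotes had 220.6, 198.4 and 232.6 FPKM and PA zygotes 191.8, 229.3 and 158.4. The 2-cell blastomeres had 161.1 to 297.1 FPKM in IVF, with a mean of 225 ± 40.9 (SD, n = 3 embryos), and 147 to 292.1 in PA, with a mean of 191 ± 45.1 (n = 3). Cells of both methods thus overlapped at both stages and no cell was low. At 4-cell stage the range widened to 0.4041 to 359.9 FPKM in IVF (mean 116 ± 109, n = 3) and to 0.7139 to 198 in PA (mean 86.4 ± 18.4, n = 3). IVF 8-cell blastomeres had 0.7509, 0.6862 and 0.5804 FPKM. PA 8-cell blastomeres had 0.3027, 32.28 and 0. The difference from 4- to 8-cell stage was -5.50 (SE 0.902) in IVF and -2.86 (SE 0.902) in PA, and -1.07 in PA with cells scaled by the median ratio of nuclear genes. In PA, the difference from 2- to 4-cell stage was -1.13 (SE 0.638), -2.19 without the 2 near-repeat cells and 1.39 with the median ratio scaling. This scaling used 1064 genes and moved the median of all genes at that step from -0.17 to 0.26.

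PAIP2 (ENSSSCG00000026606, chr2:141237412-141260206), the repressing partner, was below 5 FPKM in all IVF zygotes and 2-cell blastomeres and higher in the IVF 8-cell blastomeres. IVF zygotes had 0.2155, 0.09737 and 2.356 FPKM and PA zygotes 1.201, 0 and 3.892. Medians were 0.1378, 0.1613 and 27.66 FPKM in IVF 2-, 4- and 8-cell blastomeres. The 3 IVF 8-cell blastomeres had 27.66, 12.17 and 28.08 FPKM, and 1 of 9 IVF 4-cell blastomeres, at 13.72, lay among them. PA 8-cell blastomeres had 0, 19.06 and 8.895 FPKM, and PA 4-cell blastomeres ranged from 0 to 16.73. The difference from 4- to 8-cell stage was 3.32 (SE 1.31) in IVF and 1.63 (SE 1.31) in PA.

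The family was chosen on the steps between stages, so calls of its members at these steps are not given. In the fit across all genes, the shares of all tested genes called were 0% in IVF and 0.0986% in PA from 1- to 2-cell stage. From 2- to 4-cell stage they were 0.616% higher and 0.493% lower in IVF against 0.382% higher and 0.0123% lower in PA. From 4- to 8-cell stage they were 3.72% higher and 3.25% lower in IVF and 6.81% higher and 3.18% lower in PA. Nothing is read from these shares about the members.

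Because FPKM is given per length and the share of 1 gene in a sum within 1 cell does not depend on the scaling of that cell, the 4 cytoplasmic forms were also expressed as shares of their summed FPKM. The shares of an embryo are those of the mean FPKM of its blastomeres, in which cells of higher values count more. The sum was 15.5 ± 4.04 (SD, n = 3 embryos), 18.7 ± 10.1 (n = 3) and 35.8 ± 19.2 FPKM (n = 3) in IVF 1-, 2- and 4-cell embryos and 160 in the 8-cell embryo. In PA it was 14.9 ± 13.97 (n = 3), 4.66 ± 6.61 (n = 3), 41.6 ± 15.3 (n = 3) and 344.8 FPKM. PABPC1L and PABPC4 made up most of it in zygotes: 41.9% ± 14.1 and 50.5% ± 21.9 in IVF (n = 3), 29.3% ± 16.1 and 60.4% ± 17.4 in PA (n = 3). PABPC1 took 5.38% ± 8.99 and 9.29% ± 15.9, respectively (n = 3 each), and these means rest on 1 zygote each, at 15.76% and 27.61%. Without that zygote they were 0.188% and 0.122%. At 4-cell stage PABPC1 took 70.3% ± 17.7 in IVF and 82.3% ± 20.7 in PA (n = 3 each). It was over 50% in all 3 embryos of each method. When the shares of blastomeres were averaged instead, it was 66.8% in IVF and 59.3% in PA. In the 8-cell embryo PABPC1 took 71.4% and PABPC4 28.6% in IVF, whereas PABPC5 took 84.4%, PABPC4 14.7% and PABPC1 0.860% in PA. PABPC1L took 0.0325% and 0.00151%, respectively. Averaged over blastomeres, the PA shares were 87.2% for PABPC5, 7.63% for PABPC4 and 5.18% for PABPC1.

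Counted by cell, PABPC4 led the sum in 2 of 3 IVF and 3 of 3 PA zygotes, and PABPC1L in 1 and 0, respectively. PABPC1 led in 0 of 9 IVF cells up to 2-cell stage, in 6 of 9 at 4-cell stage and in 3 of 3 at 8-cell stage. In PA it led in 0 of 9 cells up to 2-cell stage, in 5 of 9 at 4-cell stage and in 0 of 3 at 8-cell stage, where PABPC5 led in all 3. PABPC5 also led in 2 PA 2-cell blastomeres and 1 PA 4-cell blastomere. In the 2-cell embryo concerned, PA embryo 3, the sum of the 4 genes was 0.250 FPKM and 71.6% of it was PABPC5, so this lead stands on a sum near 0.

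**Figure D3:**
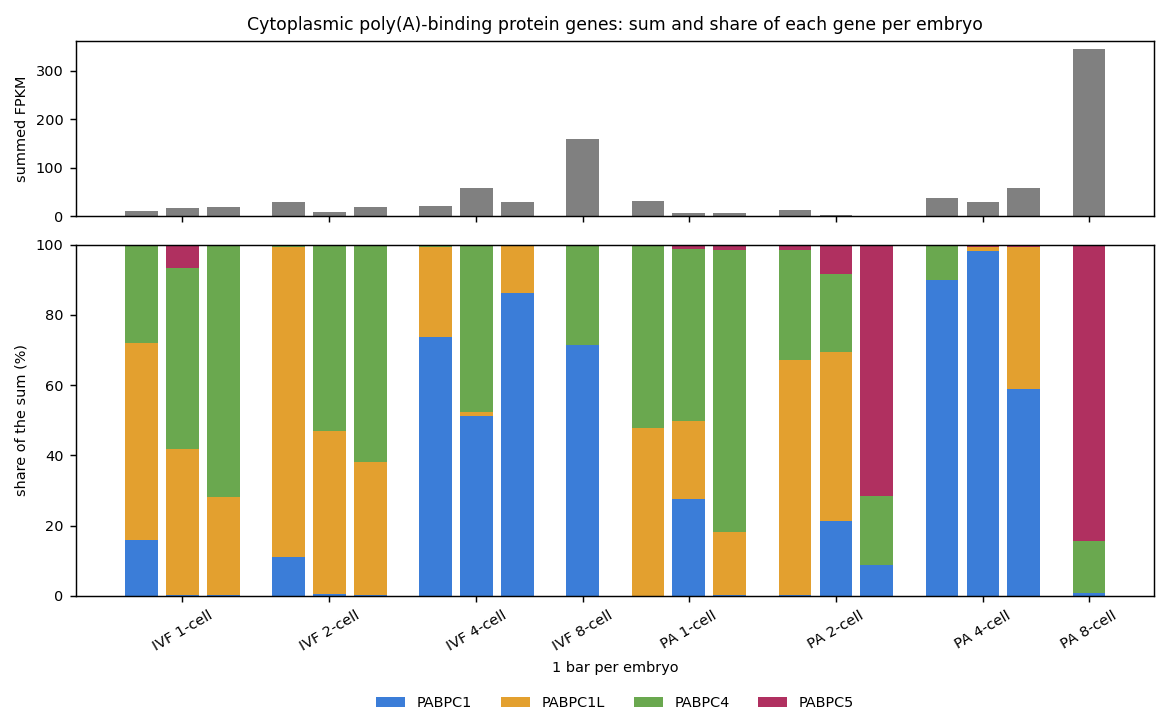
Share of PABPC1, PABPC1L, PABPC4 and PABPC5 in their summed FPKM, in percent, for each of the 20 embryos by method and stage. The bars change from mostly PABPC1L and PABPC4 in zygotes to mostly PABPC1 at 4-cell stage, and at 8-cell stage to 71.4% PABPC1 in IVF and 84.4% PABPC5 in PA.

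Sister blastomeres of 1 embryo lay further apart at 4-cell than at 2-cell stage in PABPC1 and PAIP1, which is given as a description without a test. The range between sisters had a median over 6 embryos of 0.0319 at 2-cell and 4.69 at 4-cell stage for PABPC1 on the log2(FPKM + 1) scale, and of 0.360 and 4.72 for PAIP1. The median range also rose for PABPC1L (1.524 to 2.294), PABPC5 (0.00617 to 0.0587), PABPN1 (0.2526 to 1.582) and PAIP2 (0.9877 to 2.331). For PABPC4 it fell, from 0.8425 to 0.262. Most 2-cell blastomeres were close to 0 FPKM of PABPC1, where this scale leaves little room for a range. More blastomeres were sampled of most 4-cell embryos, which by itself widens a range. The 4-cell ranges include the near-repeat cells PA 1-4 and 2-1, and were not computed without them. In PA embryo 1 the range lies between blastomere 1-3 and the near-repeat 1-4 alone. Along the 18 4-cell blastomeres, 4 were below 1 FPKM of PABPC1, namely blastomere 3-3 in IVF and blastomeres 1-4, 2-1 and 2-4 in PA. Their PAIP1 was 206.4, 198, 146.8 and 173.4 FPKM, respectively. These lie within the 147 to 297.1 FPKM of the 2-cell blastomeres but for 146.8, which is just below. PA blastomeres 1-4 and 2-1 are the cells that nearly repeat 2-cell blastomeres. The lowest PAIP1 was in IVF 4-cell-3-4 (0.4041 FPKM) and PA 4-cell-3-3 (0.7139 FPKM), in which PABPC1 was 37.91 and 12.05 FPKM. Of the 14 blastomeres at 1 FPKM or more of PABPC1, 10 were under 100 FPKM of PAIP1. These 10 were graded, from 0.4041 to 99.37 FPKM of PAIP1, and several of them held both transcripts. The others were above 100 FPKM of PAIP1. PA 4-cell-3-4 had 86.61 FPKM of PABPC1 and 185.1 of PAIP1. IVF 4-cell-1-1, 1-2 and 1-4 had 35.04, 6.496 and 3.111 FPKM of PABPC1 and 359.9, 112.4 and 226.5 of PAIP1. Mitochondrial mRNAs took 14.2% to 36.4% of the summed FPKM in the 4 cells below 1 FPKM of PABPC1. They took 24.8% to 63.0% in the other 14, and their part was not tested.

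**Figure D4:**
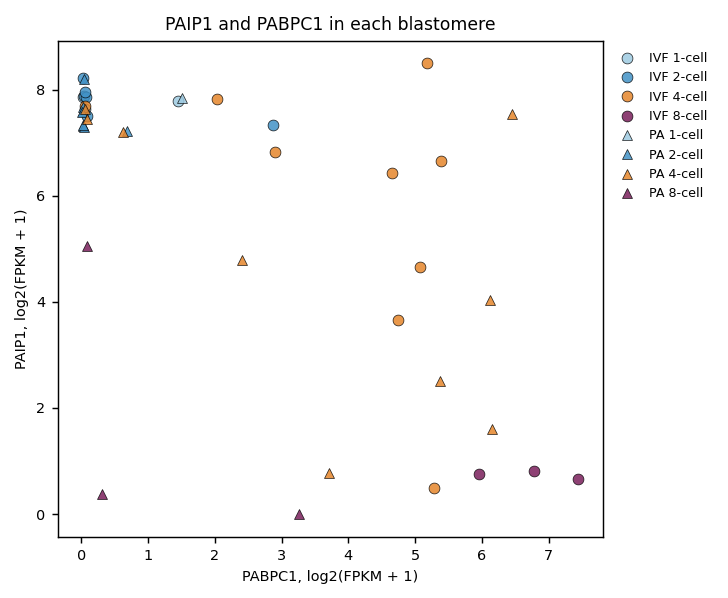
PAIP1 against PABPC1 in each of the 42 blastomeres, both as log2(FPKM + 1). Colours mark the stage, circles mark IVF and triangles mark PA. At 4-cell stage, the 4 blastomeres below 1 FPKM of PABPC1 lie at 146.8 to 206.4 FPKM of PAIP1. The other 14 of that stage spread from 0.4041 to 359.9 FPKM.

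To see whether the method of making the embryo changed the members, IVF was compared with PA within each stage, leaving out PABPC5, whose difference was part of the choice. None of the 6 other members was called at 1-, 2- or 4-cell stage by limma, and 0 of them had an unadjusted p below 0.05 at any of the 3 stages. The shares of all tested genes called were 0.0493%, 0% and 0.554%, respectively. Of these 8116 genes, 332, 441 and 1134 had an unadjusted p below 0.05 by limma. The largest difference was that of PABPC1L at 2-cell stage, 2.03 higher in IVF (SE 1.16, limma adjusted p = 0.925). PAIP1 differed by 0.18, 0.24 and -0.18 (SE 0.638 each) and PABPC1 by -0.00, 0.57 and -0.49 (SE 0.739 each) at the 3 stages. The standard errors of 0.638 to 1.18 on the log2 scale, with 3 embryos a group, are larger than most of these differences, so they do not show that the methods were alike. At 8-cell stage, with 1 embryo for each method, no test was made.

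Whether a step between stages differed between IVF and PA was fitted as an interaction. Since the family was chosen on its stages and each 8-cell arm is 1 embryo, the interactions of members are given as a description, with no p. PABPC5, whose interaction at the last step was part of the choice, is left out. None of the 6 other members passed the calling threshold for the first step, the step from 2- to 4-cell stage (0% of all tested genes each) or the step from 4- to 8-cell stage (2.86% of all tested genes). The interaction of PABPC1 at the last step was 5.35 (SE 1.48) and ranged from 4.33 to 10.3 over the 10 other settings. Without the 2 near-repeat cells, it was 5.81. For PAIP1 the interaction was -2.64 (SE 1.28), and without IVF 4-cell embryo 2 it was -3.65.

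The surroundings of the family were described by a list of 60 genes of the poly(A) tail, of which 54 were in the table and 48 were tested: the cap-binding complex and its helpers (12 tested), other proteins that bind PABPC1 (15), poly(A) polymerases (7), the polyadenylation machinery (11) and poly(A)-specific nucleases (3). No gene of the list was called from 1- to 2-cell stage by limma in IVF (1 at an unadjusted p below 0.05) or in PA (3), or from 2- to 4-cell stage in PA (2). Of all 8116 tested genes, 216, 394 and 873, respectively, had an unadjusted p below 0.05 by limma. The 0 calls from 2- to 4-cell stage in PA became 4 without the 2 near-repeat cells and 8 with the median ratio scaling. Calls over all tested genes at that step were 31 higher and 1 lower in the main fit. They became 93 higher and 507 lower of 8033, and 566 higher and 3 lower of 8747, respectively. In IVF, 1 gene of 48 fell from 2- to 4-cell stage (2.08%, against 0.493% of all tested genes). NUDT21, a subunit of cleavage factor I, decreased by 2.89 (SE 0.683, limma adjusted p = 0.0454), from 28.0 ± 11.6 to 3.33 ± 3.07 FPKM (SD, n = 3 embryos each). This call held under 2 of 10 other settings (limma adjusted p from 0.0063 to 0.367) and in 1 of 6 fits that left out 1 embryo, without IVF 4-cell embryo 1, so it depends on the setting. The list had a median of 0.19 at this step, against -0.23 over all tested genes.

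From 4- to 8-cell stage, 2 of 48 rose and 3 fell in IVF (4.17% and 6.25%), and 1 rose and 2 fell in PA (2.08% and 4.17%). Of all tested genes, 3.72% rose and 3.25% fell in IVF and 6.81% rose and 3.18% fell in PA, so these counts do not set the list apart. Each 8-cell group is 1 embryo. The p-values of this step, here and below, thus use the spread of the other groups and do not measure that between 8-cell embryos. TENT5C, a non-canonical poly(A) polymerase, had the highest level of the called genes. Its mean was 215.8 ± 127 FPKM (SD, n = 3 embryos) in IVF and 205.8 ± 65.1 (n = 3) in PA at 4-cell stage. IVF 8-cell blastomeres had 0.4356, 0.9984 and 44.19 FPKM and PA 8-cell blastomeres 24.2, 0.9948 and 18.46. It fell by 3.52 in IVF (SE 0.726, limma adjusted p = 0.00418) and fell by 3.69 in PA (SE 0.726, limma adjusted p = 0.00259). With the median ratio scaling it fell by 1.12 in IVF and was not called. The IVF call was also lost with only the compared groups in the fit. The PA call was lost with only the compared groups in the fit (limma adjusted p = 0.0986, against 0.00127 to 0.0986 over the 10 other settings). ATXN2, which binds the MLLE domain of PABPC1, was at 17.7 ± 8.07 FPKM in IVF and 20.7 ± 15.7 in PA 4-cell embryos (n = 3 each) and below 1 FPKM in all 6 8-cell blastomeres. It fell by 4.09 in IVF (SE 1.07, limma adjusted p = 0.0225) and fell by 3.51 in PA (SE 1.07, limma adjusted p = 0.0421). The PA call held under 4 of 10 other settings (limma adjusted p from 0.0104 to 0.597) and in 1 of 3 fits that left out 1 embryo, being lost without PA 4-cell embryo 1 (limma adjusted p = 0.103) and without embryo 3 (limma adjusted p = 0.0792). The IVF call held under 7 of 10.

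MTPAP, the mitochondrial poly(A) polymerase, rose by 3.73 in IVF (SE 0.757, limma adjusted p = 0.00368), with 0, 1.477 and 35.62 FPKM in the 8-cell blastomeres, so that 1 cell carried the rise. With log2 values averaged over blastomeres the difference was 2.16 and not called (limma adjusted p = 0.0667, against 1.51e-05 to 0.240 over 9 other settings). EIF4G1, the scaffold that joins PABP to the cap, rose by 2.43 in IVF (SE 0.586, limma adjusted p = 0.0128), with 4.959, 10.12 and 0.2713 FPKM in the 8-cell blastomeres against 0.137 ± 0.107 (n = 3) at 4-cell stage. The EIF4G1 call held under 6 of 9 other settings (limma adjusted p from 0.000868 to 0.268). In PA 8-cell blastomeres it was at 0.002992, 0 and 0 FPKM.

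PAPOLA, the main nuclear poly(A) polymerase, rose by 4.72 from 4- to 8-cell stage in PA (SE 1.05, limma adjusted p = 0.00619). With only the compared groups in the fit this call was lost (limma adjusted p = 0.0688, against 0.000326 to 0.0688 over the 10 other settings). The PA 8-cell blastomeres had 60.96, 0.01924 and 23.09 FPKM, whereas the PA 4-cell embryos were at 0.104 ± 0.104 (SD, n = 3). IVF 4-cell embryos were at 14.9 ± 9.36 FPKM (n = 3), and PAPOLA was the gene of the list called between IVF and PA, 3.60 higher in IVF at 4-cell stage (SE 0.742, limma adjusted p = 0.0426). This is 2.08% of the list, against 0.554% of all tested genes. In that fit, 34 of all 8116 tested genes were called higher and 11 lower in IVF. The list had 4 such calls without the 2 near-repeat cells, where 306 of 8033 genes were higher and 26 lower. With the median ratio scaling it had 6, where 90 of 8747 genes were higher and 302 lower. The calls of the list thus grew together with those of all genes. In PAPOLA, the 4-cell embryos of both methods did not overlap. This difference was called under 7 of 10 other settings (limma adjusted p from 0.00852 to 0.742) and was lost without IVF 4-cell embryo 2 or 3 or PA 4-cell embryo 2 or 3 (limma adjusted p from 0.0605 to 0.0649). No gene of the list was called between IVF and PA at 1-cell (0 at an unadjusted p below 0.05) or 2-cell stage (4) by limma. Of all 8116 tested genes, 332 and 441 had such an unadjusted p, respectively.

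**Figure D5:**
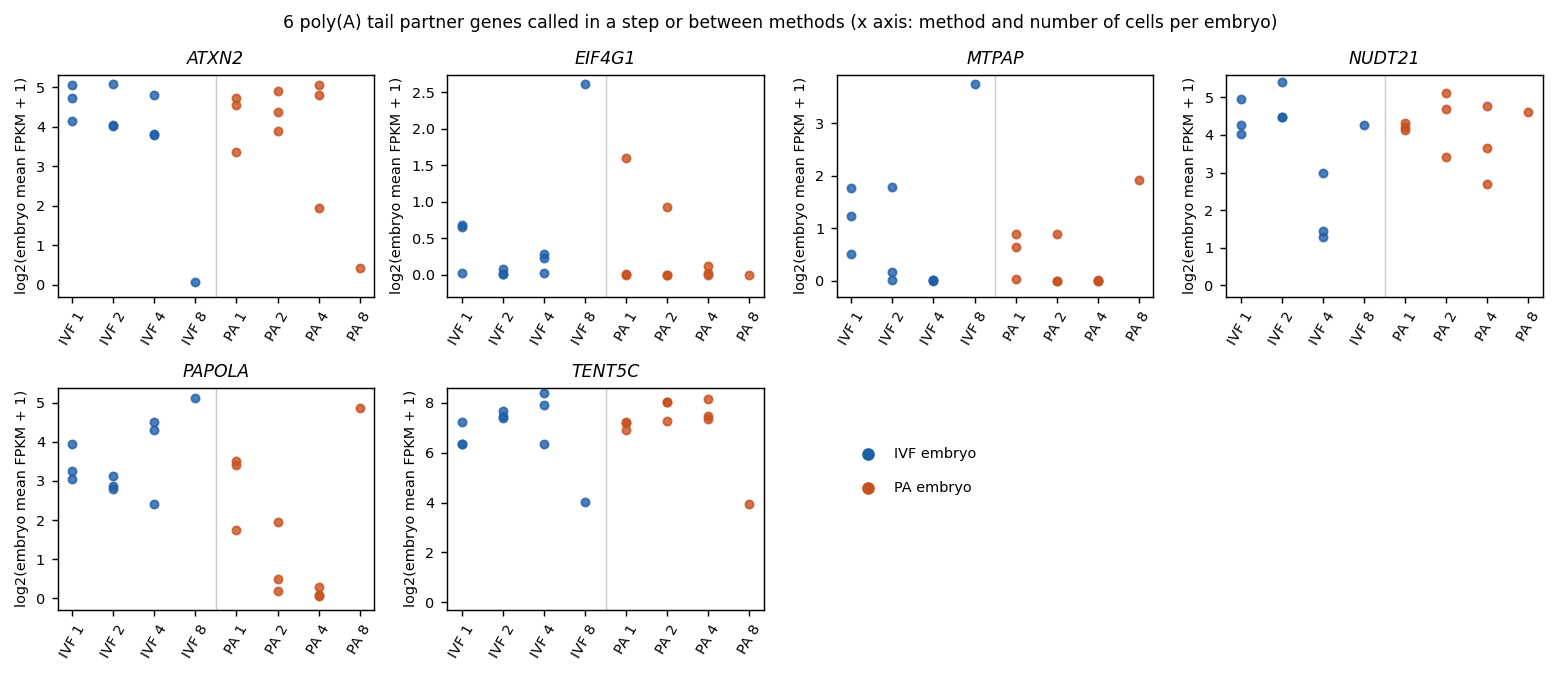
Level of 6 called genes of the poly(A) tail list in each embryo, as log2 of the embryo's mean FPKM plus 1, by method and number of cells per embryo. Each 8-cell group is 1 embryo. ATXN2 and TENT5C lie lower at 8-cell stage in both methods, and PAPOLA lies near 0 in PA 4-cell embryos.

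Of 7 further relatives listed, 4 were in the table. PAIP2B, a second repressing partner, had 8.55 ± 2.48 FPKM in IVF and 8.93 ± 2.36 in PA zygotes (SD, n = 3 embryos each), above PAIP2 in every zygote. It was at 0.0127 to 0.0170 FPKM in IVF 8-cell blastomeres and at 0, 0.02995 and 28.27 in PA. ZC3H14, a nuclear poly(A)-binding zinc finger protein, was at 10.2 ± 9.07 FPKM in IVF and 11.11 ± 3.09 in PA zygotes (n = 3 each) and at 0.291 and 0.0192 in the 8-cell embryos. PABPC4L was listed at 0 in all cells but 1 of the IVF 8-cell embryo, at 0.4965 FPKM, and PABPN1L, a form known from oocytes, reached 1.784 FPKM at most.

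The genes whose pattern was most like that of each member were named by Pearson's r over the 20 embryos, which share stages and scaling, and are given as a description. PABPC1 was followed most closely by SELENOS (r = 0.907), CLK1 (0.897) and TAF1D (0.889). PAIP1 was followed by CASD1 (0.955), CLOCK (0.952) and CNNM2 (0.948), and PABPC5 by EFNB1 (0.974), TEAD2 (0.961) and CCDC136 (0.957), all 3 of which had their highest level in the PA 8-cell embryo. The closest to PABPC1L were RFC1 (0.832) and TDRD6 (0.822), and to PABPC4 PRRC1 (0.836) and PGM2 (0.827). For PABPN1 it was TAOK2 (0.847) and for PAIP2 GPD2 (0.860) and GATA6 (0.831).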

How the data were processed

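By the paper's methods, the authors amplified the cDNA of each blastomere with Ansuper-seq (with or without polyA tails), sequenced it on a HiSeq X-Ten, mapped reads to Sscrofa11.1 with HISAT2, assembled them with StringTie, counted them with HTSeq and deposited FPKM of 15351 genes in 42 cells. Versions, strandedness and molecular identifiers are not given in the sources used here, and the protocol in the labels describes another extraction (Trizol, oocytes). Reads were recovered as whole multiples of each gene's smallest FPKM unit (14658 of 14692 expressed genes, 99.77%, within 0.001 reads). Precision was taken from the spread between embryos, since amplified reads are not independent molecules.

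For embryo means on the log2(FPKM + 1) scale, limma 3.58.1 (R 4.3.3) was fitted to all 8 groups together with a mean-variance trend. The 8116 genes that reached 1 FPKM in 3 or more cells entered the fit. Each stage was compared with the one before it, IVF with PA up to 4-cell stage, and method with step. Tested on simulated data with known changes, the fit missed most of the smaller and many of the larger ones, so a gene that was not called may have changed. Named genes are the members and, of the tail list, the called genes (up to 8 a direction), the relatives in the table and the 3 genes most alike by r, of which up to 3 are given. Of the tail list, 1 called gene, included in its counts, is not reported here. The members and lists were chosen with earlier results of these data known. Embryo numbers do not pair groups: of 45 pairs of same-numbered deviations, 4 correlated above 0.1. Of these, 3 were the PA 2- and 4-cell pairs (0.355, 0.282 and 0.100), which fell to -0.0135, 0.00931 and -0.00593 without the 2 near-repeat cells. Sequences, gene ends and promoters came from RefSeq on Sscrofa11.1 (Biopython 1.88, BLAST+ 2.17.0). The alternatives were other pseudocounts (0.1 and 5), other filters, 2 scalings, means of log2 values, only the compared groups, no near-repeat cells, embryo number as a block and each embryo left out.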

Additional observations from a re-analysis of the deposited data

Results flagged for a closer look

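Each member was looked at within each group of 6 or 9 blastomeres, which gave 27 sets of values. In these, 12 values lay further from the other cells of their group than Dixon's 95% limit allows. That limit flags about 1 set in 20 for independent, normally spread values. Sister blastomeres share an embryo and many values lie at or near 0, so the 12 cannot be set against that rate. PABPC1 stood out in IVF 2-cell-1-1 (6.301 FPKM, next 0.05734) and in PA 2-cell-2-1 (0.6066 FPKM, next 0.03043). PABPC1L stood out in PA 2-cell-1-1 (16.38 FPKM) and PA 4-cell-3-1 (70.6 FPKM, 2332 reads, next 1.202). PABPC4 did so in IVF 4-cell-2-3 (52.25 FPKM, 7259 reads), PA 2-cell-1-2 (7.55 FPKM) and PA 4-cell-1-4 (7.25 FPKM), of which the last 2 are cells that nearly repeat each other. PABPC5 stood out in PA 4-cell-3-3 (0.8911 FPKM, 65 reads) and, with 1 read against 0 in the other 8 cells, in IVF 4-cell-3-1 (0.01478 FPKM). PABPN1 (7.7 FPKM) and PAIP2 (13.72 FPKM) stood out in the same cell, IVF 4-cell-2-2, and PAIP2 also in IVF 2-cell-3-1 (4.145 FPKM).

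The step of PABPC1 from 4- to 8-cell stage went up in IVF and down in PA, with a difference of 5.354 on the log2(FPKM + 1) scale. The IVF 8-cell embryo was above all 3 IVF 4-cell embryos and the PA 8-cell embryo below all 3 PA 4-cell embryos. By chance alone, 1 embryo can readily lie outside the range of 3 others. The share of all genes placed in this way is not given, so the placement does not set PABPC1 apart from other genes. The difference was not tested, since the family was chosen on its stages and the 8-cell stage of each method is 1 embryo.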

How the results depend on the processing

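No paired design was used, since embryo numbers mark no shared source. With embryo number as a replicate block, called genes of the tail list from 2- to 4-cell stage in IVF went from 1 to 0. The counts of members called between IVF and PA, and of list genes called at the other steps, stayed within 1.5 times. The list gave 1 call at that step and also 0 with a pseudocount of 0.1 or 5, no filter, both scalings, only the compared groups or no near-repeat cells, and 2 with means of log2 values. From 4- to 8-cell stage in IVF, 5 calls became 3 (FPKM of at least 5, or means of log2 values), 8 (median ratio) or 0 (only the compared groups). In PA, 0 calls from 2- to 4-cell stage became 8 (median ratio), 1 (means of log2 values) or 4 (no near-repeat cells), and 3 calls from 4- to 8-cell stage became 5 (pseudocount 5, or no near-repeat cells), 9 (median ratio) or 1 (only the compared groups). Between IVF and PA at 4-cell stage, 1 call became 2 (pseudocount 0.1), 0 (pseudocount 5, means of log2 values or only the compared groups), 6 (median ratio) or 4 (no near-repeat cells). Calls over all tested genes also changed with these settings. In PA from 2- to 4-cell stage, 31 higher and 1 lower became 566 and 3 (median ratio) or 93 and 507 (no near-repeat cells). Between IVF and PA at 4-cell stage, 34 higher and 11 lower became 90 and 302 or 306 and 26, respectively. The causes were not tested.

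No difference of a member between IVF and PA was called under any alternative, and several changed sign. At 1-cell stage, PABPC1 was 0.11 (pseudocount 0.1), PABPC4 -0.0774 (same total) and -0.27 (median ratio), and PAIP1 -0.20 (median ratio). PAIP1 was -0.11 at 2-cell stage (median ratio). At 4-cell stage, PABPC1L was -0.18 (pseudocount 5), PABPN1 -0.0503 (same total) and -0.0929 (median ratio), PABPC1 0.60 and PAIP1 0.76 (means of log2 values), and PAIP1 0.87 and PAIP2 0.33 (no near-repeat cells). The interaction from 4- to 8-cell stage turned for PABPC1L to 0.19 (pseudocount 5) and 0.39 (median ratio) and for PABPC4 to 1.95 (means of log2 values).

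With each embryo left out in turn, list calls ranged from 0 to 4 from 2- to 4-cell stage in IVF (4 without IVF 4-cell embryo 1). Between IVF and PA at 4-cell stage they also ranged from 0 to 4 (4 without IVF 4-cell embryo 1, and 0 without IVF embryo 2 or 3 or PA embryo 2 or 3). Differences between IVF and PA that turned ranged at 1-cell stage from -0.47 to 0.49 (PABPC1), -0.37 to 0.63 (PABPC4), -0.36 to 0.10 (PABPN1) and -0.99 to 0.15 (PAIP2). At 2-cell stage they ranged from -0.0921 to 0.92 (PABPC1), -0.0159 to 1.12 (PABPN1) and -1.02 to 0.15 (PAIP2). At 4-cell stage they ranged from -0.59 to 1.69 (PABPC1L), -0.69 to 1.69 (PABPC4), -0.50 to 0.62 (PABPN1), -0.996 to 0.82 (PAIP1) and -1.36 to 0.0602 (PAIP2). The interaction from 4- to 8-cell stage ranged from -1.63 to 0.66 (PABPC1L) and -1.84 to 0.54 (PABPC4).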
